A study of Mus musculus with 24 samples.

Results

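The endothelial markers Pecam1, Cdh5, Tek, Tie1, Stab2, Lyve1, Vwf, Selp, Emcn and Thbd were found by symbol in both RNA-seq tables of mouse liver cells, 10 genes of 49568 in each. In the homeostasis experiment, EpCAM+ ductal cells (DCs), PDGFRa+SCA1- and PDGFRa+SCA1+ mesenchymal cells (Msc) and PDGFRa-SCA1+ cells were sorted from 3 mice aged 12 weeks, A and E male and F female, on a C57BL/6 background. All 3 mice were heterozygous for the Pdgfra tm11(EGFP)Sor allele, which puts nuclear GFP under the Pdgfra locus, and all 4 populations were gated negative for CD31, CD45 and CD11b. The transwell experiment used wild-type C57BL/6 mice of 8 to 12 weeks and held 6 groups of 2 replicates: DCs and SCA1+Msc cells fresh from the sort (day 0), and after 15 days EM organoids (DCs in growth-factor medium), DCs co-cultured with SCA1+Msc cells through a permeable membrane, SCA1+Msc cells cultured alone and SCA1+Msc cells from the co-culture. Per the methods, the transwell DCs and SCA1+Msc cells were also gated negative for CD31, CD45 and CD11b. The transwell SCA1+Msc cells were sorted without a PDGFRa gate, so the fresh sort could hold both PDGFRa+ and PDGFRa- cells. They had been expanded for 7 days before DCs were added. Expansion and co-culture used a mesenchymal medium without the growth factors, so the 2 organoid groups differ in medium as well as in stroma. The comparisons ask which population sorted from healthy liver carries vessel transcripts, of which vessel type, and which of them are still present in cultured SCA1+ stroma. In the paper's staining, SCA1 was detected on endothelium of the portal vein but not on the sinusoidal network.

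Liver endothelium comes in several forms. Sinusoidal endothelial cells line the capillaries between hepatocyte plates, are perforated and take up waste molecules through scavenger receptors such as stabilin-2 (Stab2) and the hyaluronan receptor LYVE1. The endothelium of larger vessels and venules is continuous and stores von Willebrand factor (Vwf) and P-selectin (Selp), which capture platelets and leukocytes, while PECAM1, VE-cadherin (Cdh5), the receptors TIE1 and TIE2 (Tek), endomucin (Emcn) and thrombomodulin (Thbd) are shared by many vessels.

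Libraries held 19.6 to 25.7 M reads on genes in the homeostasis and 19.3 to 28.1 M in the transwell experiment. Values of the homeostasis table are the deposited ones, which are scaled for exon length and depth and lie within a factor of 0.722 to 1.39 of TPM. Transwell values are TPM made from the deposited RPKM, and since the tables were normalized separately, each test was made within a table. A fold change is a difference on the scale of log2(value + 1), and its p is from limma, adjusted over all genes tested (17028 and 18136). These are bulk samples, in which fewer cells of a type and less RNA per cell cannot be told apart. Per the methods the transwell stroma came from 2 littermates and its DCs from 2 others, and the 2 samples of a group are biological replicates, without a statement of which sample came from which animal.

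Sequence is shown for 4 members whose start sites are in the RefSeq promoter table (GRCm38.p6), because Tek and Selp fell in cultured stroma while the differences of Tie1 and Emcn did not pass the test. Each run is the 250 bases before the start site, read 5′ to 3′ on the strand of the gene, with capitals for AGGAAG or CTTCCT, the letters of one ETS-type motif on either strand (ETS factors are known regulators of endothelial genes). Tie1 is read from chr4:118489850-118490099 on the minus strand, Tek from chr4:94739039-94739288, Emcn from chr3:137340828-137341077 and Selp from chr1:164115014-164115263, these 3 on the plus strand.
Tie1: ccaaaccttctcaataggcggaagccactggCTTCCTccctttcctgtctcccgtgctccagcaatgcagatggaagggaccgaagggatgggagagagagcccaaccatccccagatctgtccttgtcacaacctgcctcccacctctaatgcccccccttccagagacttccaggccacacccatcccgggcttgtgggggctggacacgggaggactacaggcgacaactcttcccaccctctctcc
Tek: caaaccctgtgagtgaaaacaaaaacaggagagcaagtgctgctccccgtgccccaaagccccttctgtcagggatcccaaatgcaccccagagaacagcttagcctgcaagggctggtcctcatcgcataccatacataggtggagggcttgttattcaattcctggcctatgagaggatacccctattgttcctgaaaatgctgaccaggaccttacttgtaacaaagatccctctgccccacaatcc
Emcn: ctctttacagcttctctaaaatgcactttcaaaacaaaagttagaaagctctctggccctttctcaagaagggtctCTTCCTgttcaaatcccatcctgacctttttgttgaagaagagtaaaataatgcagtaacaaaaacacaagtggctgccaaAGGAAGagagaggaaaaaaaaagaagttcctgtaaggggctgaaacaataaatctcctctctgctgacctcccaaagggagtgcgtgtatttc
Selp: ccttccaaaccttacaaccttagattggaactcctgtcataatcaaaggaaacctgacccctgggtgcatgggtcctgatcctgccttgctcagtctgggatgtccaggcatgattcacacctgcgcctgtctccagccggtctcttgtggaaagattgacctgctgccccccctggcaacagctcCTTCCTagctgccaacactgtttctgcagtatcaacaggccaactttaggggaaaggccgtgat
The windows of Tie1 and Selp held 1 match each and that of Emcn held 2, whereas these letters were not in the window of Tek. Stab2, the other member with a window, held 1 match. Of the 32851 windows of the table, 29.5% held the motif, so the matches in 4 of 5 members are given as a description of the sequences.

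Every marker was higher in PDGFRa-SCA1+ cells than in the other 3 populations of each mouse. For each, all PDGFRa-SCA1+ libraries lay above all PDGFRa+SCA1+ libraries, as did those of 23.9% of all tested genes. That share was 19.8% against PDGFRa+SCA1- cells and 19.6% against DCs. Pecam1 (chromosome 11, 106654217 to 106750628, minus strand) encodes CD31, the surface protein used to remove endothelial cells from all 4 sorts. Its value was 726 in mouse A, 732 in mouse E and 929 in mouse F for PDGFRa-SCA1+ cells, the order of mice kept below (796 ± 116, SD, n = 3). The other 9 libraries lay between 0 and 3.21, and the groups did not overlap. Against PDGFRa+SCA1+ cells it stood 8.04 higher on the log2 scale (SE 0.63, limma adjusted p = 3.9e-06). Cdh5 (chromosome 8, 104101625 to 104144511), the adhesion molecule of endothelial junctions, had 320, 392 and 281 in PDGFRa-SCA1+ cells and at most 1.18 elsewhere. On the log2 scale it stood 7.97 above PDGFRa+SCA1+ cells (SE 0.50, adjusted p = 9.15e-07). Transcripts of CD31 were thus present at a high level in a population gated as negative for the protein.

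The angiopoietin receptors followed the same order. Tek had 664, 774 and 797 in PDGFRa-SCA1+ cells, against 0.0771 to 11.0 in PDGFRa+SCA1+ cells, 0.0608 to 12.1 in PDGFRa+SCA1- cells and 0.122 to 3.0 in DCs. Tie1, the orphan partner of TIE2, had 435, 335 and 361 in PDGFRa-SCA1+ cells and at most 7.28 in any other library. Neither gene overlapped between PDGFRa-SCA1+ cells and the rest, with log2 fold changes over PDGFRa+SCA1+ cells of 7.22 for Tek (SE 1.01, adjusted p = 0.000298) and 7.93 for Tie1 (SE 0.76, adjusted p = 1.82e-05). Emcn, a sialomucin of capillary and venous surfaces, had 319, 337 and 288 in PDGFRa-SCA1+ cells. In the other populations 8 of 9 libraries were at 0.0795 or below, and 1 PDGFRa+SCA1+ library reached 2.38. The log2 difference from PDGFRa+SCA1+ cells came to 7.67 (SE 0.55, adjusted p = 2.21e-06).

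The sinusoidal receptors and the large-vessel proteins were both present. Stab2 (chromosome 10, 86841198 to 87008025, minus strand), the scavenger receptor of sinusoids, had 303, 345 and 128 in PDGFRa-SCA1+ cells and at most 5.43 elsewhere. Lyve1 (chromosome 7, 110850607 to 110863239, minus strand), found on sinusoids and lymphatic vessels, had 221, 162 and 83.6, and at most 7.42 elsewhere. Both were lowest in mouse F. Their log2 fold changes over PDGFRa+SCA1+ cells, 5.62 for Stab2 (SE 0.61, adjusted p = 4.37e-05) and 4.84 for Lyve1 (SE 0.79, adjusted p = 0.000945), were smaller than those of Selp or Vwf, a difference between genes that was not tested. Selp, the adhesion receptor that endothelium displays from its storage granules, had 3421, 5999 and 6216 in PDGFRa-SCA1+ cells and at most 14.5 in the other 9 libraries. Over PDGFRa+SCA1+ cells it stood 11.08 higher on the log2 scale (SE 0.81, adjusted p = 2.44e-06). Vwf (chromosome 6, 125546774 to 125686679), the multimeric plasma protein that tethers platelets, had 212, 185 and 160, a log2 difference from PDGFRa+SCA1+ cells of 7.51 (SE 0.52, adjusted p = 1.8e-06). It had 0 to 2 reads in all DC and PDGFRa+SCA1+ libraries, and 1, 200 and 8 reads in the 3 PDGFRa+SCA1- libraries.

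Thbd (chromosome 2, 148404466 to 148408188, minus strand), the thrombin receptor that switches on the anticoagulant protein C, was the least confined. It had 942, 716 and 857 in PDGFRa-SCA1+ cells, 68.9, 273 and 66.9 in PDGFRa+SCA1+ cells, 9.77, 226 and 88.0 in PDGFRa+SCA1- cells, and 0.13, 2.89 and 0.17 in DCs. Mouse E was the highest of the 3 in both mesenchymal populations. Thbd was 2.93 higher than in PDGFRa+SCA1+ cells on the log2 scale (SE 0.94, adjusted p = 0.047), with no overlap between the groups, and this call was lost with quantile normalization (adjusted p = 0.0526), with a pseudocount of 0.1 (adjusted p = 0.115) and with no filter on low values (adjusted p = 0.102). It was also lost without 8 of the 12 libraries, each left out in turn, with the fold change between 2.59 and 3.04 in those 8.

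In all, 10 of 10 markers were called higher in PDGFRa-SCA1+ cells than in PDGFRa+SCA1+ cells, where 10.9% of all tested genes were. The same was found for 10 of 10 over PDGFRa+SCA1- cells (14.2% of all genes; log2 fold changes of 3.79 for Thbd to 10.12 for Selp) and 10 of 10 over DCs (11.5%; 6.21 for Lyve1 to 10.53 for Selp). Cdh5, Vwf and Emcn reached a value of 1 in only 1 library outside PDGFRa-SCA1+ cells and entered the fit through that population, so these 3 had to differ. Between PDGFRa+SCA1+ and PDGFRa+SCA1- cells 0 of 10 were called (limma; 0.587% of all genes in either direction), and 0 of 10 had an unadjusted p under 0.05. The count at an unadjusted p under 0.05 was 1 with the replicate block and 2 with quantile normalization, and the number of calls stayed at 0 in both. Stab2 came nearest, with 2.39, 5.43 and 4.16 in PDGFRa+SCA1+ cells against 0.0194, 2.08 and 1.39 in PDGFRa+SCA1- cells. It was the 1 marker whose libraries were all higher in PDGFRa+SCA1+ cells, as were those of 8.82% of all genes, with a log2 difference of 1.3 (95% interval -0.020 to 2.63, adjusted p = 0.436). The intervals of the same difference were -2.72 to 0.80 for Selp and -1.18 to 2.90 for Thbd.

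**Figure D1:**
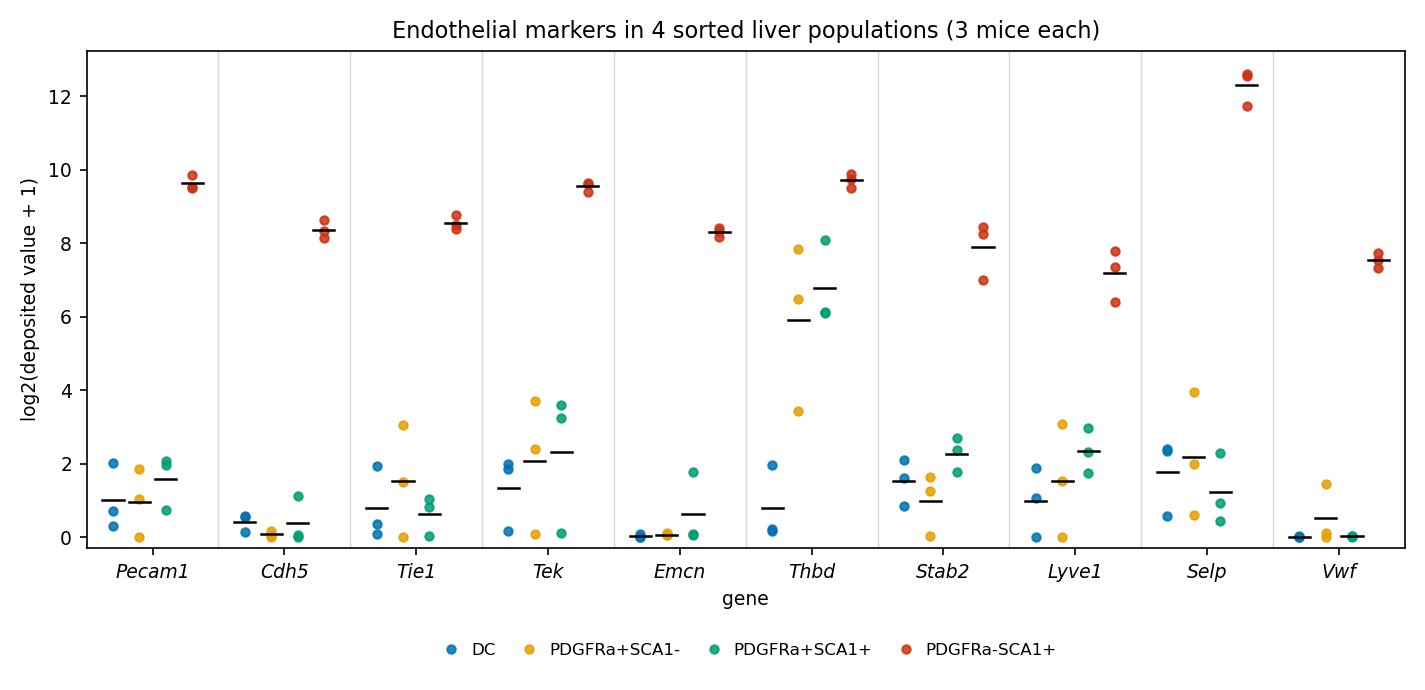
Level of each marker as log2(deposited value + 1) in the 4 sorted populations of the homeostasis experiment, 1 point per mouse with a black bar for the mean of 3. PDGFRa-SCA1+ cells lie above every other library for all 10 genes. Against 1 population at a time, 19.6% to 23.9% of all tested genes did so. Only Thbd also has high points in PDGFRa+ cells, up to a value of 273.

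Within PDGFRa-SCA1+ cells the levels, which are per exon length, fell into 3 tiers. Selp led with 5212 ± 1555 (SD, n = 3), and its lowest mouse was above the highest of any other marker. Thbd (838 ± 114), Pecam1 (796 ± 116) and Tek (745 ± 71.2) followed, with overlapping ranges. Tie1, Cdh5, Emcn, Stab2, Vwf and Lyve1 came last, from 377 ± 52.0 for Tie1 to 156 ± 69 for Lyve1, and neighbours in this order overlapped. Reads on Stab2 did not come out whole with the exon length used here, so its place in the order is less certain.

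The ratio of Selp to the sinusoidal markers differed between mice, and Vwf did not follow Selp. The ratio of Selp to Stab2 was 11.3 in mouse A, 17.4 in mouse E and 48.7 in mouse F, and that of Selp to Lyve1 was 15.5, 37.0 and 74.3. Stab2 per Pecam1 was 0.417, 0.471 and 0.137. Vwf per Pecam1 was 0.293, 0.252 and 0.172, lowest in mouse F as Stab2 was, and Vwf to Stab2 was 0.701, 0.535 and 1.25, with mouse E below mouse A. The deposited table divides genes of a sample by the totals of different samples, and with this undone the Selp to Stab2 ratios were 11.6, 18.0 and 56.3, in the same order. Other genes of PDGFRa-SCA1+ cells can be set beside this: the sinusoidal lectin gene Clec4g had 2185, 2485 and 1638, the DNase gene Dnase1l3 2063, 2100 and 1206, and Ehd3 2361, 2779 and 1563, each lowest in mouse F. Sele, which encodes E-selectin of activated venules, had 1176, 2015 and 2863, highest in mouse F. Being lowest in mouse F was not particular to sinusoidal genes: Cdh5 (281), Emcn (288), Plvap and Eng were too. As deposited, Pecam1 (929) and Tek (797) were highest there, and Tie1 and Thbd were neither. With the reuse undone Tek (740, 720 and 604), Tie1 (454, 382 and 369) and Thbd (942, 822 and 747) were instead lowest in mouse F. Pecam1 (841, 732 and 801) was then no longer highest there. Clec4g, Dnase1l3, Ehd3, Sele, Plvap and Eng were not checked in that way. Mouse F was the only female and 1 animal, so sex and individual cannot be told apart, and with 1 library per mouse this is a description with no test.

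Genes of several vessel types were higher in PDGFRa-SCA1+ cells. All 20 other pan-endothelial genes were called higher than in PDGFRa+SCA1+ cells, where 10.9% of all tested genes were. Their median log2 fold change was 5.81 against 0.25 over all genes. Erg of this list was at 0 in every library of the other populations. It entered the fit through PDGFRa-SCA1+ cells and so had to differ. How many other list genes entered that way was not counted, and the list counts here are a description. Plvap, which forms the diaphragms of endothelial pores, had 4874, 3973 and 3618, and Eng, a TGF-beta co-receptor that PDGFRa+ cells also expressed (538 to 1223), had 4270, 4784 and 3087. Of the sinusoidal list 12 of 12 genes were called higher (median 6.55), and of the central vein list 6 of 6 (median 6.47), among them Rspo3 (1201, 1099 and 814) and Wnt2 (1106, 1053 and 400), secreted signals that set the zones of the lobule. Of 7 tested vein and venule genes 5 were higher (median 2.35) and of 10 artery genes 8 (median 2.97). Among the latter were Gja4, a gap junction gene, with 1257, 976 and 1748, and Dll4, a Notch ligand, with 245, 303 and 352. Vegfc, the next artery gene by level (162 ± 57.7, SD, n = 3), was not called. Of 4 tested lymphatic genes 1 was higher (10.9% of all genes were) and 2 were lower (7.86%). Flt4, shared by sinusoids and lymphatics, was higher (165, 210 and 98.8). Pdpn, at 4.72, 0.188 and 8.07 against 266 to 1001 in PDGFRa+SCA1+ cells, and Reln were lower. Prox1 (7.69 ± 5.59, SD, n = 3) was not called. Ccl21a and Mmrn1 were at 0 in all 3 libraries.

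The sample labels call PDGFRa-SCA1+ cells mesenchymal, and the markers went against that label. The paper itself reports high endothelial gene expression in this fraction and calls its cells endothelial. All 8 mesenchymal genes were called lower than in PDGFRa+SCA1+ cells (median log2 fold change -6.54), where 7.86% of all genes were. Dcn, decorin of fibroblasts, had 391, 227 and 423 against 22570 to 25796. Pdgfra itself was at 0.0276 to 0.0402, and Ly6a, which encodes SCA1, at 3018 to 4970. Markers of other cell types in the same libraries differed between mice. The summed level of 9 macrophage and Kupffer cell genes ranged from 0.707 to 116, with Marco at 0 in all 3, and that of 8 megakaryocyte and platelet genes, which are of interest because Selp and Vwf are also platelet genes, from 20.2 to 42.2, below the 65.4 to 109 of PDGFRa+SCA1+ cells, with Gp1bb, Gp6 and Treml1 at 0. In that platelet list Gp1ba alone was called higher, at 11.0, 10.6 and 14.8. Summed hepatocyte genes were at 2139 to 6580, erythroid genes at 3790 to 8516 and ductal genes at 115 to 4249. Called higher than in PDGFRa+SCA1+ cells (10.9% of all genes) were 5 of 8 hepatocyte, 3 of 5 tested erythroid and 2 of 8 ductal genes. Called lower (7.86%) were 1 hepatocyte gene, Cyp2e1, and 1 ductal gene, Sox9. Mesothelial genes summed to 293 to 503 against 10.9 to 27.1 in PDGFRa+SCA1+ cells. Of 5 tested, 1 was called higher, Gpm6a, and 1 lower, Wt1. The part of these other cell types in the marker levels was not tested.

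The genes whose pattern over the 12 homeostasis libraries was most like the mean of the 10 markers were Ptprb (Pearson r = 0.997), Rab5c (0.994), Fabp4 (0.993), Nos3 (0.989) and Myct1 (0.988). Ptprb, a phosphatase that acts on TIE2, had 681 to 1083 in PDGFRa-SCA1+ cells and at most 5.63 elsewhere. Rab5c, a GTPase of early endosomes, had 300 to 313 against 77.5 to 103, a far smaller step. The 12 points share 3 mice and 4 sorts, and the correlations are a description.

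In the transwell experiment the fresh SCA1+Msc sort also carried all 10 markers. Selp had 427 and 330 TPM, Thbd 235 and 228, Pecam1 70.6 and 80.1, Tek 39.8 and 46.7, and Cdh5 30.5 and 34.9. Lyve1 had 37.5 and 27.0, Tie1 27.2 and 34.2, Stab2 28.0 and 19.6, Emcn 19.7 and 27.5, and Vwf 13.8 and 6.65. Selp again led. Fresh DCs held less of each: Selp 27.1 and 11.8, Thbd 9.43 and 5.88, Lyve1 7.40 and 7.99, Stab2 6.58 and 5.14, Pecam1 6.34 and 4.8, and the other 5 at 0.577 to 5.94. All 10 were called higher in fresh SCA1+Msc cells (21.4% of all genes were), by 1.84 for Stab2 on the log2 scale (SE 0.29, adjusted p = 0.000658) to 4.78 for Thbd (SE 0.33, adjusted p = 3.1e-06). The call of Tek (3.0, SE 0.84, adjusted p = 0.0152) was lost with a pseudocount of 0.1 (adjusted p = 0.208), without DC replicate 1 (adjusted p = 0.0868) and without SCA1+Msc day 0 replicate 2 (adjusted p = 0.0585). The mean of the markers in fresh DCs was 3.31% (Thbd) to 24.6% (Stab2) of that in fresh SCA1+Msc cells.

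After 15 days the markers of cultured SCA1+ stroma fell into 2 groups. The differences of Pecam1, Cdh5, Tie1, Emcn and Thbd from fresh cells did not pass the test, and Selp, Stab2, Lyve1, Tek and Vwf had fallen, to at most 2.82% of the fresh mean alone and 9.80% in co-culture. Thus 5 of 10 were called lower in the alone culture than in fresh cells, against 17.5% of all genes, and 0 of 10 higher, against 27.4%. Pecam1 had 45.8 and 82.0 TPM alone and 96.1 and 61.5 in co-culture, around the fresh 70.6 and 80.1. Cdh5 had 31.4 and 57.0 alone and 58.2 and 43.2 in co-culture. The alone replicates overlapped the fresh ones for both genes. Both co-culture replicates of Cdh5 lay above both fresh ones, as did those of 38.6% of all genes. The co-culture mean of Cdh5 was 155% of the fresh mean. The log2 difference from fresh cells in the alone culture was -0.29 for Pecam1 (95% interval -1.0 to 0.43, adjusted p = 0.501) and 0.37 for Cdh5 (-0.34 to 1.07, adjusted p = 0.379). In co-culture it was 0.03 for Pecam1 (-0.68 to 0.75, adjusted p = 0.982) and 0.60 for Cdh5 (-0.10 to 1.31, adjusted p = 0.154).

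Tie1 and Tek went apart. Tie1 had 27.2 and 34.2 TPM in fresh cells, 32.0 and 41.9 alone and 40.7 and 23.8 in co-culture, with a log2 difference of 0.26 alone (95% interval -0.58 to 1.09, adjusted p = 0.618). Tek had 39.8 and 46.7 in fresh cells, 2.43 and 0 alone and 6.37 and 0 in co-culture, which is 88 and 0 reads alone and 190 and 0 reads in co-culture. In each culture Tek was thus present in 1 replicate and without reads in the other, and the higher co-culture value was above the 3.38 and 5.94 of fresh DCs. The log2 fold change of Tek was -4.57 alone (SE 0.84, adjusted p = 0.00176) and -4.02 in co-culture (SE 0.84, adjusted p = 0.0037).

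The differences of Emcn and Thbd did not pass the test either. Emcn had 14.3 and 24.5 TPM alone and 35.2 and 19.9 in co-culture against 19.7 and 27.5 in fresh cells (log2 difference alone -0.30, 95% interval -1.10 to 0.50, adjusted p = 0.539). Thbd had 294 and 275 alone and 152 and 198 in co-culture against 235 and 228, so it was the most abundant marker of the cultures. It was higher than fresh in both alone replicates (39.1% of all genes were) and lower in both co-culture replicates (26.0%). Neither difference passed the test (0.30, adjusted p = 0.498, and -0.41, adjusted p = 0.344). Thbd was also the marker with levels of up to 273 in PDGFRa+ cells of the homeostasis experiment.

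The 4 markers of storage granules and scavenging fell too. Selp went from 427 and 330 TPM to 0 and 2.95 alone and to 2.93 and 1.63 in co-culture, 0.390% and 0.603% of the fresh mean. Its log2 fold changes were -7.57 (SE 0.60, adjusted p = 1.07e-05) and -6.87 (SE 0.60, adjusted p = 2.01e-05). Vwf fell from 13.8 and 6.65 to 0.0243 and 0.211 alone and to 1.0 and 0.259 in co-culture (-3.26, SE 0.40, adjusted p = 0.000168, and -2.75, SE 0.40, adjusted p = 0.000485). Stab2 and Lyve1, the sinusoidal receptors, had 0 reads in both alone libraries. Against a floor of 3 reads per library, the alone level of Stab2 was at least 511-fold lower and that of Lyve1 at least 231-fold lower than the fresh mean. This floor covers counting error only. Replicates can differ by more, as the alone libraries of Selp held 0 and 96 reads, and the bounds leave out that spread. In co-culture Stab2 had 0 and about 1 read, and Lyve1 had 3.57 and 2.75 TPM. In co-culture, too, 5 of 10 markers were called lower than in fresh cells (17.3% of all genes), Selp, Stab2, Tek, Lyve1 and Vwf again, and both comparisons share the fresh libraries.

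**Figure D2:**
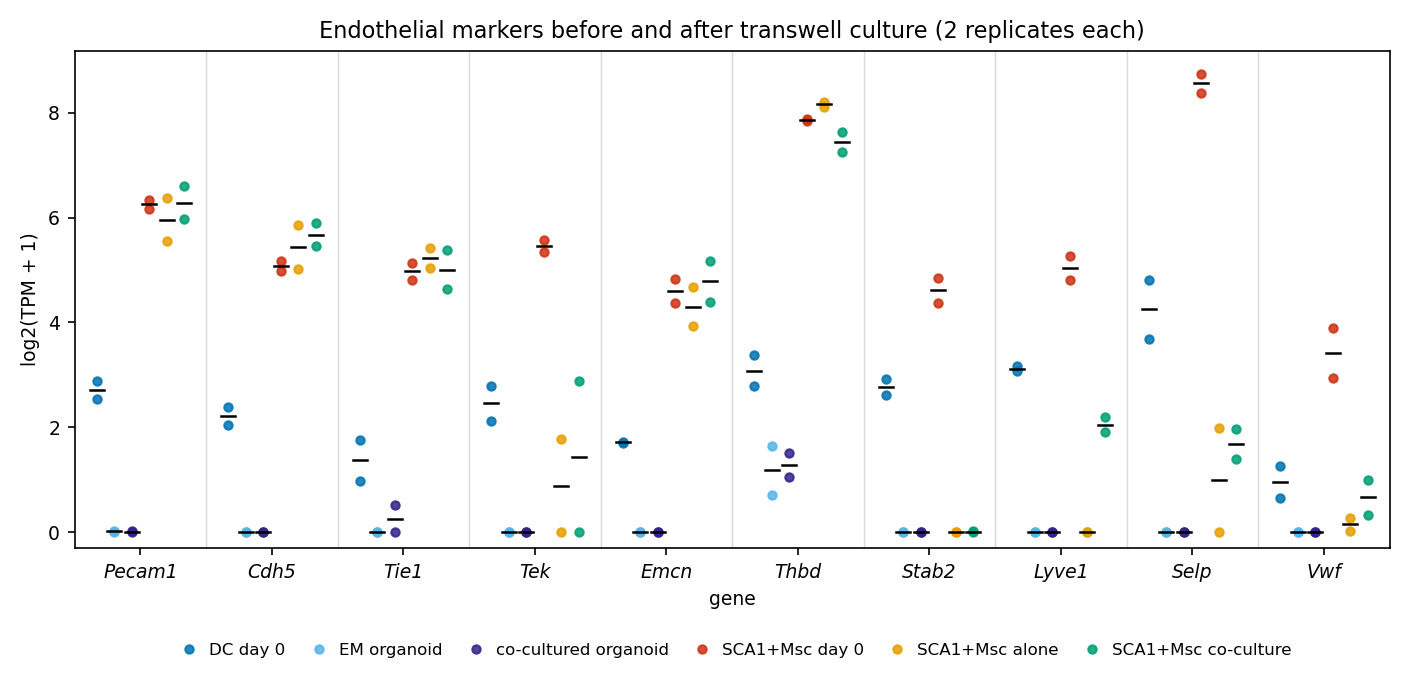
Level of each marker as log2(TPM + 1) in the 6 transwell groups, 1 point per replicate with a black bar for the mean of 2. Pecam1, Cdh5, Tie1, Emcn and Thbd of cultured SCA1+Msc cells lie at levels like those of fresh SCA1+Msc cells. Selp, Stab2, Lyve1, Tek and Vwf lie below both fresh SCA1+Msc points (25.5% of all genes did alone and 26.0% in co-culture). Tek is at 6.37 TPM in 1 co-culture replicate, above both fresh DC points, and Lyve1 at 3.57 and 2.75 TPM in co-culture. Organoids are near 0 for all but Thbd.

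**Figure D3:**
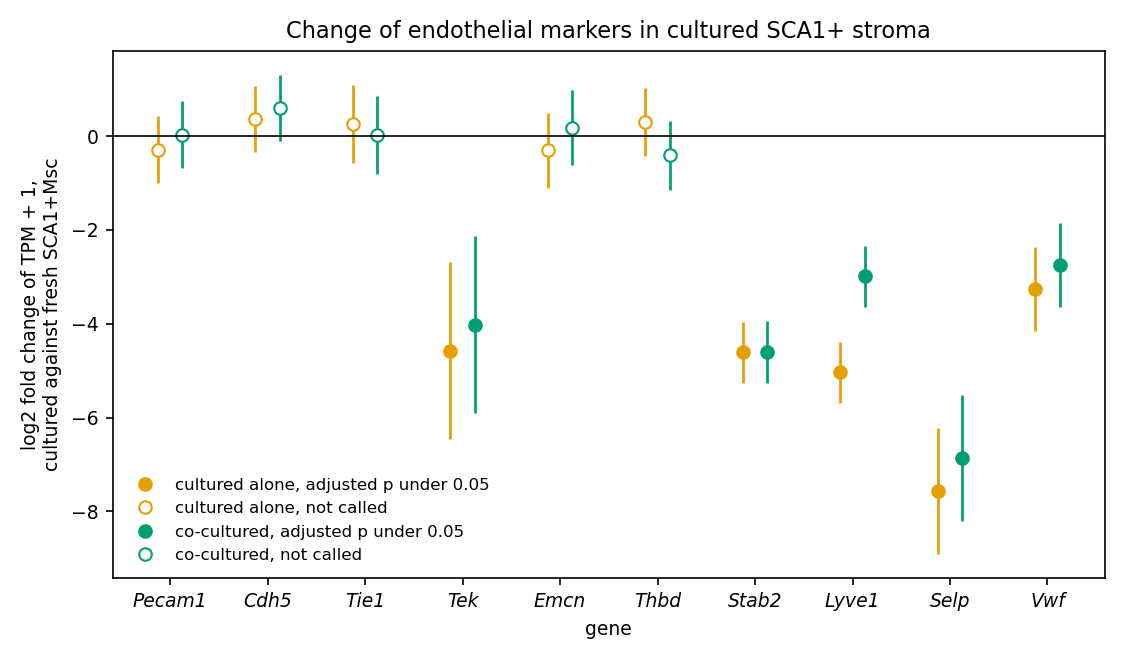
Log2 fold change of TPM + 1 in SCA1+Msc cells cultured alone or in co-culture against fresh cells, with 95% intervals from limma. Filled points passed an adjusted p of 0.05; the 5 genes with open points have intervals that include 0, and the 5 with filled points have values of -7.57 to -2.75.

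Lyve1 was the only marker of 10 called between co-culture and culture alone (0.127% of all genes were), with 66 and 58 reads against 0 and 0 and a log2 difference of 2.05 (SE 0.29, adjusted p = 0.0395). This call was lost with the replicate block (adjusted p = 0.0898), with no filter on low values (adjusted p = 0.0587), with RPKM as deposited (adjusted p = 0.121) with only the 2 groups compared (adjusted p = 0.397) and without any 1 of 10 of the 12 libraries (adjusted p = 0.0773 to 0.230). The other 9 differences lay between -0.71 for Thbd and 0.69 for Selp, with 95% intervals such as -1.44 to 0.02 for Thbd and -0.39 to 1.04 for Pecam1.

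Of the sinusoidal list 10 of 12 genes were lower in SCA1+Msc cells cultured alone than fresh, as were 17.5% of all genes. The median log2 fold change of the list was -3.34 against 0.19 over all genes. Clec4g went from 203 and 190 TPM to 1.32 and 1.71, Dnase1l3 from 139 and 98.5 to 0 and 0.0527, and Ehd3 from 309 and 206 to 66.6 and 62.4. Gata4 and Maf, the other 2 of this list (named after their values were seen), were not called. Of the 20 other pan-endothelial genes 9 were lower and 1, Ecscr, was higher (median -0.79). Eng had 962 and 957 fresh and 881 and 891 alone, and Plvap fell from 749 and 669 to 255 and 405 (adjusted p = 0.019). Of 8 vein and venule genes 4 were lower, with Sele falling from 188 and 181 to 0 and 0 and Icam1 from 1479 and 1494 to 104 and 132, and 3 were higher. Of 10 artery genes 3 were higher and 2 lower, with a median of 0.65, shares near those of all genes (27.4% and 17.5%). Of 6 central vein genes 4 were lower, Wnt2 from 42.8 and 28.9 to 4.68 and 4.03 among them, whereas Rspo3 had 75.7 and 45.5 fresh and 87.8 and 74.1 alone. The paper also reports Rspo3 in mesenchymal cells of the liver, so its level here cannot be assigned to vessel cells.

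Ligands and partners of the TIE receptors did not all follow Tek. In the homeostasis experiment 1 of 7 such genes, Ptprb, was called higher in PDGFRa-SCA1+ than in PDGFRa+SCA1+ cells, and 3, the angiopoietins Angpt1 and Angpt4 and Svep1, were lower, as were 7.86% of all genes. In the alone culture 3 of the 7 were higher than fresh and 1 was lower, where 27.4% and 17.5% of all genes were. Ptprb, the phosphatase of TIE2, fell with Tek, from 61.6 and 63.3 TPM to 1.72 and 5.32 (log2 fold change -3.94, adjusted p = 0.0002). The 3 that rose, named after their values were seen, were Angpt4, an angiopoietin (2.05), Svep1, an extracellular protein that binds TIE1 (1.67), and Grb14, an adaptor (1.97). Angpt2, the ligand that competes at TIE2, had 8.37 and 15.5 fresh and 32.5 and 51.3 alone, which did not pass the test (adjusted p = 0.079), and 115 and 46.7 in co-culture, which did (2.58, adjusted p = 0.0175).

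Genes of other cells moved over the same days. In the alone culture 8 of 8 hepatocyte, 5 of 5 tested erythroid and 7 of 8 ductal genes were lower, against 17.5% of all genes. The hepatocyte genes summed to 17996 to 22631 TPM fresh and 41.9 to 55.6 alone. Of 8 mesenchymal genes 3 were higher, against 27.4% of all genes (sum 25095 to 26400 fresh and 44851 to 47781 alone). Pdgfra rose from 123 and 81.2 to 274 and 194. Macrophage and Kupffer cell genes summed to 60.8 to 78.7 fresh and 14.9 to 23.0 alone, with Ptprc and Clec4f at 0 in the alone culture and Marco called higher there. Platelet genes summed to 76.0 to 81.0 and 24.1 to 24.8. Their part in the change of the markers was not tested.

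**Figure D4:**
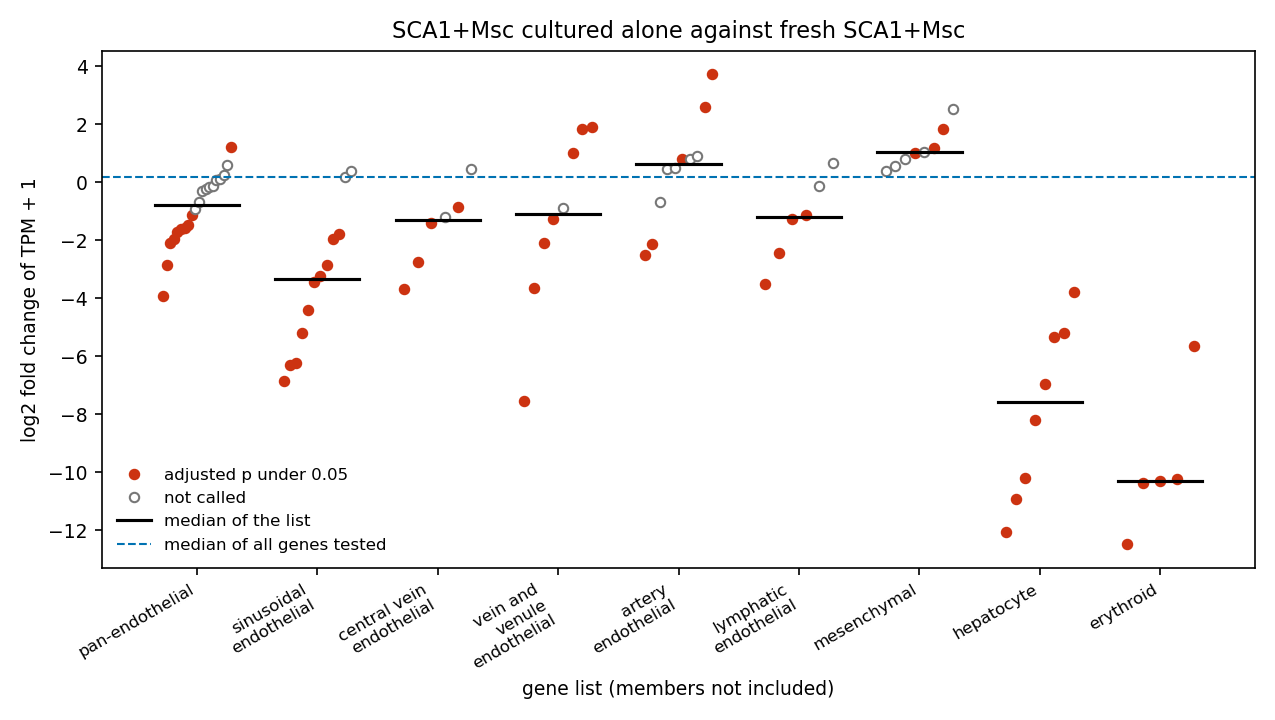
Log2 fold change of TPM + 1 for the tested genes of each list in SCA1+Msc cells cultured alone against fresh ones, with black bars for list medians and a dashed line for the median of all genes (0.19). The sinusoidal list lies lowest of the endothelial lists (median -3.34) and the artery list highest (0.65), while hepatocyte and erythroid genes fell by more.

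In DC-derived organoids the markers were nearly absent. Of 10 markers 9 were called lower in EM organoids than in fresh DCs (17.2% of all genes) and 9 in co-cultured organoids (19.1%), with Vwf as the exception in both (adjusted p = 0.0806 and 0.0833). That exception depended on the pseudocount: Vwf had 0 reads in the organoids, at least 34.0-fold (EM) and 40.1-fold (co-culture) below fresh DCs, and was called with a pseudocount of 0.1 (-3.34, adjusted p = 0.0106 and 0.0111). It was also called without either fresh SCA1+Msc library (adjusted p = 0.0425 to 0.0447). Cdh5, Tek, Stab2, Lyve1, Vwf, Selp and Emcn had 0 reads in all 4 organoid libraries, so that Selp was at least 183-fold and Stab2 at least 109-fold lower in EM organoids than the fresh DC mean of 19.5 and 5.86 TPM. Pecam1 had 0 or 1 read in each. Thbd kept 57 and 15 reads in EM and 62 and 30 in co-cultured organoids, which is 0.631 to 2.15 TPM, and Tie1 had 16 reads in 1 co-cultured organoid library. The calls of Tek (-2.46, adjusted p = 0.038 for EM and 0.0397 for co-culture) and of Tie1 (-1.37, adjusted p = 0.0138, and -1.11, adjusted p = 0.0368) were each lost without DC replicate 1 and without several other single libraries. The 2 organoid comparisons share the DC libraries. Over the 4 libraries 7 markers were not detectable at this depth, which the floor of 3 reads sets at 0.0209 to 0.161 TPM. The fold bounds above rest on that floor, which covers counting error only. They leave out the spread between replicates, such as the 0 and 16 reads of Tie1 in co-cultured organoids.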

How the data were processed

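RNA-seq of sorted mouse liver cells (12 homeostasis and 12 transwell libraries) was analysed from 2 gene tables. Per the labels, reads were aligned with STAR 2.5.0a and counted with featureCounts 1.6.0. The transwell table holds RPKM values deposited by the authors, which were scaled here to TPM. The homeostasis table holds a length- and depth-scaled signal deposited by the authors under the name TPM, in which totals of different samples were reused down the rows, so its column sums run from 847270 to 1.17351e+06 and its values are used as deposited. The 4 columns of the authors' group means were not used. Depth was recovered from the steps of low values, of which 92.8% and 93.0% were whole reads within 0.02 read. The floor of 3 reads covers counting error only.

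A gene entered the fit when 3 homeostasis or 2 transwell samples reached a value of 1, and was tested as log2(value + 1) in limma 3.58.1 (R 4.3.3), with all groups of a table in 1 fit without a block, and Benjamini-Hochberg adjusted p under 0.05 as the call. Tables were handled in Python 3.11.15 with numpy 2.4.6 and pandas 2.3.3, and the fit was tested on simulated data. The 3 mice of the homeostasis experiment each gave all 4 populations, so they pair its samples (correlation of deviations 0.00395 to 0.0973). Transwell samples share a replicate number only. Alternatives were a pseudocount of 0.1, a minimum value of 5 or no filter, quantile normalization, the reuse of totals undone, RPKM as deposited, a replicate block, only the 2 groups compared, a 2-fold minimum, and each library left out.

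The members and lists were chosen with earlier results of these data known. Named were all 10 markers with the sort gate genes, up to 3 genes per list with the highest mean in PDGFRa-SCA1+ cells, and the 5 genes most like the markers' mean. Other genes named from lists, such as those that differed from the rest of a list, were chosen after their values were seen.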

Additional observations from a re-analysis of the deposited data

How the results depend on the processing

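Of single-gene results, 542 of the values under other settings kept direction and side of the threshold, 15 lost the call, 2 gained it and 4 changed sign, and with 1 library left out these counts were 920, 39, 4 and 9. All sign changes were in differences that had not passed the test. For co-culture against fresh cells, Pecam1 was -0.16 and Tie1 -0.11 with quantile normalization, and -0.036 and -0.034 with RPKM as deposited. With 1 library left out, Pecam1 in that comparison ranged from -0.29 to 0.35, Tie1 from -0.34 to 0.40 and Emcn from -0.22 to 0.58. For culture alone against fresh cells the ranges were -0.70 to 0.12 for Pecam1, -0.051 to 0.79 for Cdh5 and -0.67 to 0.072 for Emcn. The number of markers called between co-culture and culture alone (1, Lyve1) was 0 with no filter, with RPKM as deposited, with the replicate block and with only the 2 groups compared, and 0 to 1 with 1 library left out. Besides that, the replicate block ended only the Tie1 call in co-cultured organoids (adjusted p = 0.050). Over all genes, 100 were called between PDGFRa+SCA1+ and PDGFRa+SCA1- cells, 54 with quantile normalization and 20 with the block, and 23 between co-culture and culture alone, 5 with the block. Quantile normalization moved the median of all genes from 0.25 to 0.04 for PDGFRa-SCA1+ against PDGFRa+SCA1+ cells, and the share of higher calls from 58.1% to 45.7%; against PDGFRa+SCA1- cells it moved from 66.3% to 50.4%. The causes were not tested. With 2 or 3 samples a group, small differences in the markers whose culture change did not pass the test could not be resolved.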
